A study of Mus musculus with 6 samples.

Results

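The genes of 10 myeloid C-type lectin receptors (Clec7a, Clec9a, Clec4n, Clec4d, Clec5a, Clec12a, Clec4a1, Clec4a2, Clec4a3 and Clec10a) were followed in common myeloid progenitors, which had been sorted from the fetal liver of mice. They were taken by gene symbol, and all 10 were found among the 24815 gene identifiers of the data. The progenitors came from C57BL/6 embryos at E13.5 (embryonic day) and carried either wild-type alleles (libraries A, F and L) or a homozygous deletion of the -77 enhancer of Gata2, written -77-/- in the labels (libraries C, D and Q). The labels name no treatment, and per the labels' protocols both were sorted as negative for lineage markers, CD41, CD48 and Sca-1, as c-Kit and CD34 positive with a low Fc receptor signal. The enhancer deletion is carried by every cell of the embryo, and the labels do not say whether a library holds 1 embryo or a pool. The genes were selected on their expected counts and TPM in mutant against wild type, so for them that comparison is a description. Where their calls in the fits over all genes are counted, those fits used the same values, and the counts are no independent evidence.

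C-type lectin receptors are transmembrane proteins of monocytes, neutrophils and dendritic cells that bind sugars, lipids and debris of dying cells through a shared fold. Some pass on an activating signal through an immunoreceptor tyrosine-based activation motif, in their own tail or in the adaptors FcRgamma (Fcer1g) and DAP12 (Tyrobp). The signal then runs through the kinase SYK and the scaffold CARD9. DAP10 (Hcst) is a further adaptor, without this motif. Other receptors carry an inhibitory motif that recruits phosphatases such as SHP-1 (Ptpn6), and a few serve mainly to take up glycoproteins. GATA2 is a transcription factor of stem cells and early progenitors, and the -77 element is one of its distal enhancers.

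The start regions of the 3 most abundant members are shown because their transcripts carry most of the signal described below. The sequences are RefSeq's for build GRCm38.p6, read 5′ to 3′ on the strand of the gene. Capitals mark matches on either strand to the core of the PU.1 motif (GAGGAA), to GATA motifs (AGATAA or TGATAA) and to a RUNX motif (TGTGGT). For Clec12a only 30 bases are given, since its window of 250 bases lies in an exon of the GENCODE M21 annotation, and the Clec5a window stops short of 16 such bases.
Clec7a (chr6:129472780-129473029, minus strand): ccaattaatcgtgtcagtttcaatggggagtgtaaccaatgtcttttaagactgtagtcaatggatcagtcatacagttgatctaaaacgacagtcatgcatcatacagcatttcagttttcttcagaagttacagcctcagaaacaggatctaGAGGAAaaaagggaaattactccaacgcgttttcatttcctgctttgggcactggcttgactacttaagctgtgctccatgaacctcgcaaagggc
Clec12a (chr6:129350178-129350207, plus strand): aatatGAGGAAgaaaagtgTTCCTCtttca
Clec5a (chr6:40585822-40586055, minus strand): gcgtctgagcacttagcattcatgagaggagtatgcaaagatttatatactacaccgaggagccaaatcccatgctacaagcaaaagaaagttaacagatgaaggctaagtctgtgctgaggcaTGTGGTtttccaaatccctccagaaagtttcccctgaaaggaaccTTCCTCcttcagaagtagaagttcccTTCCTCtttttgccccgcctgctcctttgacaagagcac
A RefSeq start region was found for 8 of the 10 members. In the 250 bases before the start site, 5 of these 8 held GAGGAA, against 23.1% of the 27025 genes with a start region. The RUNX letters were in 4 of 8 (14.2% of all) and the GATA letters in 0 of 8 (17% of all). Clec7a had 1 PU.1 core match, 96 bases before the start, Clec12a had matches 61 and 47 bases before it, and Clec5a had matches 81 and 55 bases before it. These are letter matches, not measured binding.

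The libraries held 14473913 to 30596279 expected counts, and mutant C stood apart. Correlations of log2 CPM (library-scaled counts, with the total adjusted with TMM factors) across genes were 0.974 to 0.989 among the other 5 libraries and 0.880 to 0.923 for mutant C with any of these 5. Its counts came from shorter genes, with a count-weighted mean gene length of 1795 bases against 2826 to 3113 bases in the others, and its TMM factor was 0.614 against 1.055 to 1.171. Relative to mutants D and Q, the median gene was 1.16 higher on the log2 scale in mutant C in the tested genes of 93 to 1661 bases. The median was 0.26 in those of 1661 to 2621 bases, -0.34 in those of 2622 to 3930 bases and -1.03 in those of 3931 to 17970 bases. Clec7a, Clec12a and Clec5a, of 1856, 1723 and 2012 bases, belong to the range with the median of 0.26. In mutant C they stood 1.25, 1.67 and 0.88 above D and Q on the same scale. The 7 members that passed the count filter had mean lengths from 831 bases for Clec4a2 to 2012 bases for Clec5a. Values are therefore given for each library, as CPM and as the deposited TPM (a length-corrected share of all transcripts), and with and without mutant C. TPM divides the reads of a gene by its length, which does not remove mutant C's short-gene excess. Fcer1g (674 bases) stood at 226 TPM in mutant C against 151 and 135 TPM in D and Q. Cd93 (6677 bases) stood at 8.31 TPM in mutant C against 69.4 and 53.5 TPM in D and Q. Gata2 stood at 78.6, 57.4 and 63.9 CPM in wild type A, F and L against 8.92, 16.5 and 17.8 CPM for mutants C, D and Q, without overlap.

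In wild-type progenitors the 10 genes spanned a wide range of levels, compared here in TPM because it is corrected for length. Clec7a was the highest at 61.7 ± 3.74 TPM (SD, n = 3), followed by Clec12a at 54.2 ± 2.87 TPM and Clec5a at 34.6 ± 6.31 TPM. The wild-type values of these 3 genes did not overlap, though the lowest Clec7a library (57.4 TPM) was just above the highest Clec12a library (57.2 TPM). Clec4d (12.9 ± 3.34 TPM) came next and overlapped Clec4a2 (7.54 ± 1.79 TPM) in its range. The remaining 5 were low: Clec10a at 1.41 ± 0.139 TPM, Clec4n at 0.863 ± 0.510, Clec4a1 at 0.653 ± 0.112, Clec4a3 at 0.560 ± 0.0608 and Clec9a at 0.117 ± 0.120 TPM. Among these low genes neighbours in the order overlapped, except that Clec4a3 lay above Clec9a in every wild-type library. Clec7a, Clec12a and Clec5a together made up 85.0% to 87.0% of the summed TPM of the 10 genes for wild type against 89.1% to 92.8% in the mutant.

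**Figure D1:**
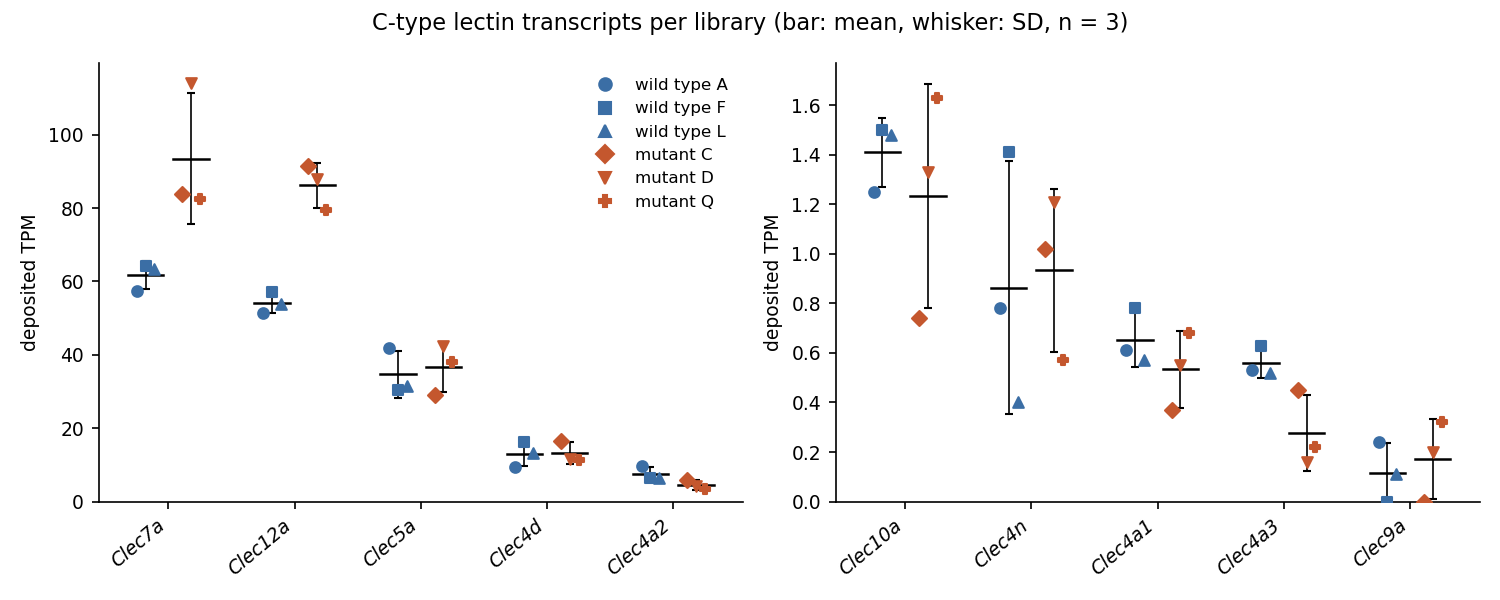
Deposited TPM of the 10 C-type lectin genes in each library, ordered by their wild-type mean (left, the 5 highest; right, the 5 lowest, on a smaller scale). Blue points are wild type and orange points mutant, the bar is the mean and the whisker the SD of 3 libraries. Clec7a and Clec12a have all mutant points above all wild-type points, while Clec5a, Clec4d and Clec10a overlap.

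Clec7a encodes Dectin-1, the receptor for fungal beta-glucan, whose own tail carries an activation motif. It lies on chromosome 6 from 129461591 to 129472779 on the minus strand (GENCODE M21, build mm10). Its level was 49.6, 62.7 and 59.5 CPM in wild type A, F and L against 238, 110 and 91.1 CPM for mutants C, D and Q. All 3 mutant libraries lay above all 3 wild-type libraries, and mutant C was the highest. The fitted log2 change was 1.35 (SE 0.39), and 0.81 (SE 0.12) without mutant C, or 1.75-fold. In TPM the wild-type libraries held 57.4, 64.3 and 63.4 and the mutants 83.9, 114 and 82.4, again with no overlap, and here mutant C was not the highest. In bulk RNA, more cells of a type and more transcript per cell cannot be told apart. The part of mutant C's short-gene excess in the CPM and TPM values of this and the other members was not tested.

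Clec12a encodes MICL, an inhibitory receptor that recognizes uric acid crystals and dying cells. It lies in the same group of genes on chromosome 6 (129342691 to 129365303, plus strand). Its level was 40.9, 52.5 and 48.8 CPM in wild type A, F and L against 246, 77.5 and 76.8 CPM for mutants C, D and Q. The groups did not overlap, and mutants D and Q were close to each other while mutant C was 3.19-fold above them. The log2 change was 1.49 (SE 0.50) with all libraries and 0.70 (SE 0.10) without mutant C, or 1.62-fold. In TPM the values were 51.4, 57.2 and 53.9 for wild type against 91.5, 87.8 and 79.5 in the mutant, so the 3 mutant libraries were closer to each other on that scale, and the fold of the means was 1.59.

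Clec5a encodes MDL-1, an activating receptor that signals through DAP12 and DAP10. It lies on chromosome 6 from 40574894 to 40585821. It stood at 40.6, 31.8 and 35.9 CPM in wild type against 81.6, 44.8 and 43.8 CPM for mutants C, D and Q. The groups did not overlap in CPM, with a log2 change of 0.65 (SE 0.29) and, without mutant C, of 0.28 (SE 0.11). In TPM they did overlap, at 41.9, 30.5 and 31.5 for wild type against 29.1, 42.5 and 38.1 in the mutant. In TPM the lowest of the 6 libraries was mutant C, which was the highest in CPM.

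Clec4d encodes MCL, which pairs with Mincle and FcRgamma in recognizing mycobacterial glycolipid. Its level was 5.73, 11.0 and 9.29 CPM in wild type against 33.6, 7.94 and 8.74 CPM for mutants C, D and Q. Mutant C alone was high, and D and Q lay within the wild-type range. The log2 change of 0.93 (SE 0.62) became -0.05 (SE 0.25) without mutant C. In TPM the wild-type values (9.42, 16.1 and 13.3) and the mutant values (16.6, 11.5 and 11.3) overlapped as well.

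The other activating members were near the detection limit. Clec4n, which encodes Dectin-2, a receptor for fungal mannans that uses FcRgamma, had 11, 13 and 4 expected counts for wild type against 16, 16 and 12 in the mutant, with a log2 change of 0.81 (SE 0.71) and 0.16 (SE 0.60) without mutant C. Clec9a, the DNGR-1 receptor of cross-presenting dendritic cells for the actin of dead cells, had 9.0, 0 and 3.0 counts for wild type against 0, 7.0 and 7.9 in the mutant. A count of 0 allows up to 0.189 CPM in wild type F and 0.330 CPM in mutant C, counting error only. Clec9a did not pass the count filter, and its start site lies between those of Clec12a and Clec7a.

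The DCIR genes were lower in level than Clec12a. Clec4a2 encodes DCIR1, an inhibitory receptor of dendritic cells, and had 2.78, 2.59 and 2.25 CPM in wild type against 8.15, 2.06 and 1.95 CPM for mutants C, D and Q. Mutant C was the highest library and D and Q were the lowest, so the log2 change was 0.61 (SE 0.60) with mutant C and -0.35 (SE 0.25) without it. In TPM every mutant library (5.93, 4.13 and 3.50) was below every wild-type library (9.61, 6.53 and 6.49). The mean transcript length that RSEM assigned to Clec4a2 was 659, 784 and 682 bases for wild type against 914, 975 and 971 bases in the mutant, without overlap, at 38.1 to 73.8 counts per library. The files list 5 transcripts for this gene, and the TPM divides by that length.

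Clec4a3, which encodes DCIR3, had 7.0, 6.0 and 6.0 counts for wild type against 8.0, 2.0 and 5.0 in the mutant. Clec4a1, which encodes DCIR4, had 10.9, 10 and 7.9 counts for wild type against 8.0, 9.3 and 20.0 in the mutant. Neither passed the count filter with all libraries. The TPM groups did not overlap for Clec4a3 (0.520 to 0.630 for wild type against 0.45, 0.16 and 0.22 in C, D and Q) and overlapped for Clec4a1. The DCIR genes are near copies of each other in 1 cluster, so reads may be split between them.

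Clec10a encodes MGL1 (CD301a), an uptake receptor for glycoproteins, and is the only member outside chromosome 6 (chromosome 11, 70156197 to 70170834). Its level was 0.755, 0.567 and 0.474 CPM in wild type against 1.32, 0.860 and 1.05 CPM for the mutant. The CPM groups did not overlap, with a log2 change of 0.79 (SE 0.33) and of 0.65 (SE 0.40) without mutant C. In TPM they overlapped, at 1.25, 1.5 and 1.48 for wild type against 0.740, 1.33 and 1.63 in the mutant. The mean transcript length that RSEM assigned to Clec10a, by which TPM divides, also varied. It was 1323, 735 and 597 bases in wild type A, F and L against 1218, 1229 and 1119 bases in mutants C, D and Q. For this gene 7 transcripts are listed. Clec10a had only 7.5 to 33.9 counts per library, and reads may be shared with its neighbour copy Mgl2.

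**Figure D2:**
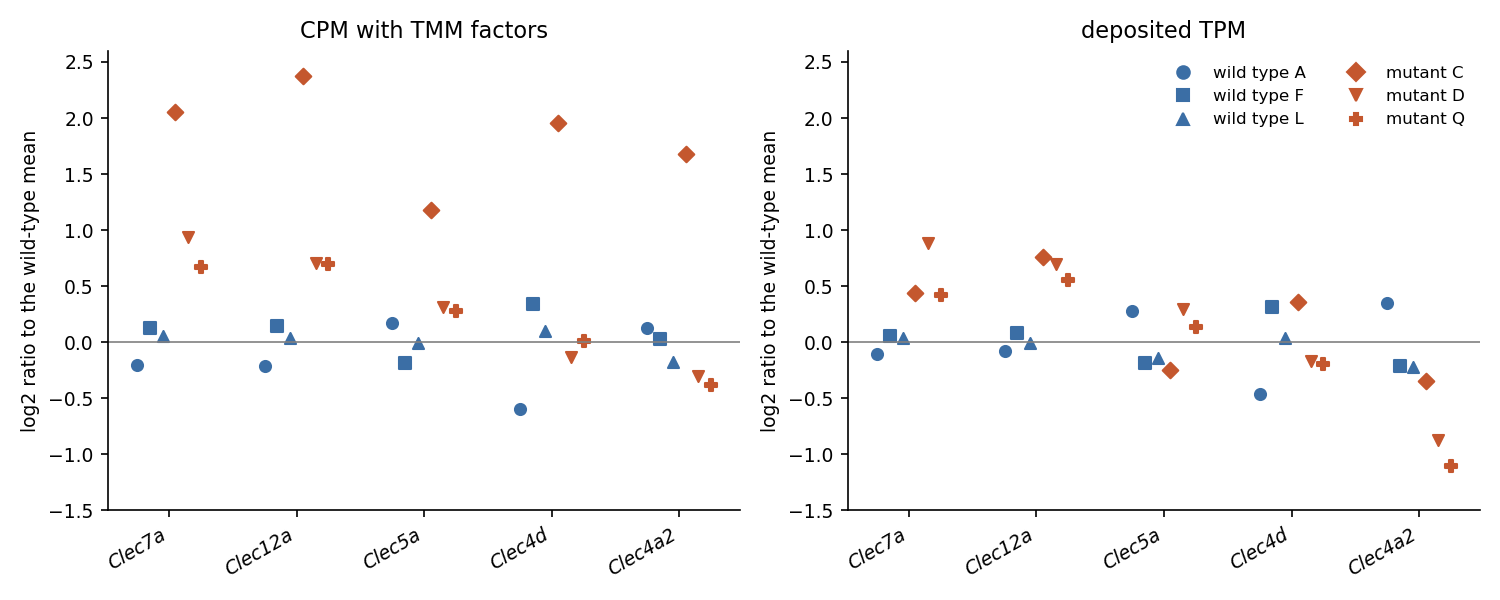
Log2 ratio of each library to the wild-type mean for the 5 most abundant members, from CPM with TMM factors (left) and from deposited TPM (right). Mutant C, the orange diamond, is the highest point of all 5 genes in CPM and of Clec12a and Clec4d in TPM, while mutants D and Q lie above all wild-type points for Clec7a and Clec12a on both scales.

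Across the members, 4 of 10 had CPM groups that did not overlap with the mutant higher (Clec7a, Clec12a, Clec5a and Clec10a), beside 10.6% of the 12222 tested genes, and 0 of 10 had the mutant lower, beside 11.4%. In TPM 2 of 10 were higher without overlap (Clec7a and Clec12a), beside 1.82% of tested genes, and 2 of 10 lower (Clec4a2 and Clec4a3), beside 24.0%. These shares cover genes that passed the count filter, which 3 of the 10 members, Clec4a1, Clec4a3 and Clec9a, did not, so the counts and shares cover unlike genes. By edgeR's quasi-likelihood test over all genes, 0 of the 7 members tested with all libraries passed an adjusted p of 0.05, where 0.147% of all genes passed (0.00818% rose and 0.139% fell). Unadjusted, 3 of these 7 had a p under 0.05, beside 4.57% of all tested genes, and 0 passed in DESeq2 (1.16% of all) or limma-voom (0.262% of all). Gata2, at a log2 change of -2.2 (SE 0.3), did not pass by edgeR with all libraries either (adjusted p = 0.087). It passed without mutant C (edgeR adjusted p = 0.00073). Without mutant C, 2 of 8 members passed, Clec7a and Clec12a, both higher, beside 1.15% of 12614 genes in all, 0.159% that rose and 0.991% that fell. Also without mutant C, the CPM groups of 4 of 10 members were apart with the mutant higher, beside 14.5%, and those of 2 (Clec4a2 and Clec4a3) with it lower, beside 14.6%. In TPM without mutant C the counts were again 2 higher, beside 4.30%, and 2 lower, beside 24.9%. Since the genes were picked with this contrast in view, these counts describe them and support nothing further. All 7 members that passed the filter had their highest CPM in mutant C, and 2 of the 7 (Clec12a and Clec4d) their highest TPM.

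The choice of scale moved all genes and not the lectins alone. Over all tested genes, the median of the log2 changes stood at -0.02 in CPM with TMM factors, -0.29 with library totals alone, -0.56 on log2(TPM + 0.5), and -0.13 on log2(TPM + 0.5) without mutant C. Relative to that median, Clec7a stood at 1.38, 1.21, 1.14 and 0.78 on these 4 scales and Clec12a at 1.52, 1.29, 1.22 and 0.75. Clec5a stood at 0.67, 0.55, 0.64 and 0.36. Clec4d went from 0.95 to -0.02 and Clec4a2 from 0.63 to -0.75 between the first and the last of them. With offsets for gene length in each library, the log2 changes with all 6 libraries were 1.09 (SE 0.24) for Clec7a, 1.13 (SE 0.31) for Clec12a, 0.47 (SE 0.18) for Clec5a, 0.33 (SE 0.36) for Clec4d and -0.32 (SE 0.25) for Clec4a2.

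**Figure D3:**
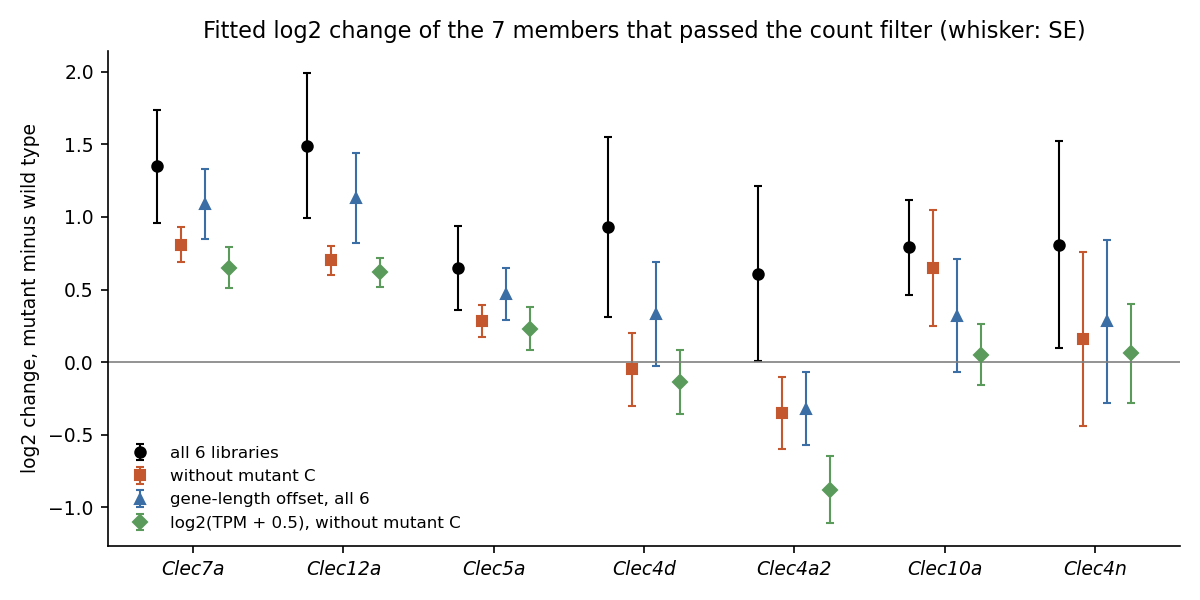
Fitted log2 change, mutant minus wild type, of the 7 members that passed the count filter, with the standard error as whisker, for 4 ways of fitting. Clec7a and Clec12a lie between 0.62 and 1.49 in the 4 fits, while Clec4a2 goes from 0.61 with all libraries to -0.88 on the TPM scale without mutant C.

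Ratios within a library do not depend on how libraries are scaled. The TPM of Clec7a was 1.12, 1.12 and 1.18 times that of Clec12a for wild type against 0.918, 1.30 and 1.04 times in mutants C, D and Q, so the groups overlapped. Against Clec5a, Clec12a stood at 1.23, 1.87 and 1.71 times for wild type against 3.14, 2.06 and 2.09 times in the mutant, without overlap, and Clec7a at 1.37, 2.11 and 2.01 times and 2.88, 2.69 and 2.16 times, also without overlap. For Clec7a the margin was small, at 2.16 in mutant Q against 2.11 in wild type F. How many gene pairs of the whole data separate in this way was not computed, so these ratios only describe the chosen genes. They also depend on the lengths used. For Clec5a RSEM assigned 2104, 2008 and 2152 bases in wild type A, F and L against 1829, 2014 and 1965 bases in mutants C, D and Q.

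The genes with the most similar profiles were sought over all 12222 tested genes, by the root mean square distance between mean-centred log2 CPM of the 6 libraries. For Clec12a the 5 closest were the chemokine gene Ccl6 (0.08), Mthfs (0.10), 1810006J02Rik (0.10), Gpr34 (0.11) and Xlr4a (0.11). For Clec7a they were Mthfs (0.11), Fcgr4 (0.16), Slfn2 (0.16), Clec12a (0.16) and 1810006J02Rik (0.17). Clec7a was the 13th closest gene to Clec12a. Like both receptors, Ccl6 was highest in mutant C, with 2.43, 3.28 and 3.08 CPM in wild type against 15.7, 4.25 and 4.31 CPM for mutants C, D and Q.

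Clec7a and Clec12a lie near each other on chromosome 6, with other genes between them, and the genes around them were read from the fit over all genes. The GENCODE M21 start sites of the pair lie 130.1 kb apart. The Clec12a sequence above was taken before a different start site, that of RefSeq, in a window that ends at 129350243. Gata2 lies 41.3 Mb from the start site of Clec7a on the same chromosome. Of 24 genes of the files between 300 kb on either side of the pair, 10 were tested with all libraries. Without mutant C, 11 were tested, and 0 of the 9 that are not members passed by edgeR (1 had an unadjusted p under 0.05). With all libraries edgeR, DESeq2 and limma-voom each called 0, with 1 at an unadjusted p under 0.05 in edgeR. Gabarapl1, an autophagy gene 60.4 kb from Clec7a, had 71.1, 91.9 and 89.6 CPM in wild type against 125, 109 and 101 CPM for mutants C, D and Q, without overlap, at a log2 change of 0.31 (SE 0.11) without mutant C. Klrd1, which encodes the natural killer receptor chain CD94, went in the same direction at low counts, with 0.596, 1.26 and 1.95 CPM in wild type against 7.60, 2.53 and 2.05 CPM for the mutant (log2 change 0.87, SE 0.44, without mutant C). Cd69 and Clec2d, on the other side, had log2 changes of 0.03 (SE 0.08) and 0.18 (SE 0.14) without mutant C. Olr1, 34.4 kb from Clec7a, was at -0.46 (SE 0.44) in the same fit. In the cluster that holds Clec4a1, Clec4a3, Clec4a2, Clec4n and Clec4d, 35.1 Mb from Gata2, 5 genes that are not members were tested without mutant C. Of these, 0 passed by edgeR. With all libraries 7 genes were tested there, members included, and 0 that are not members passed by edgeR. In either fit 0 of the genes that are not members had an unadjusted p under 0.05. Both DESeq2 and limma-voom also called 0 there with all libraries.

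**Figure D4:**
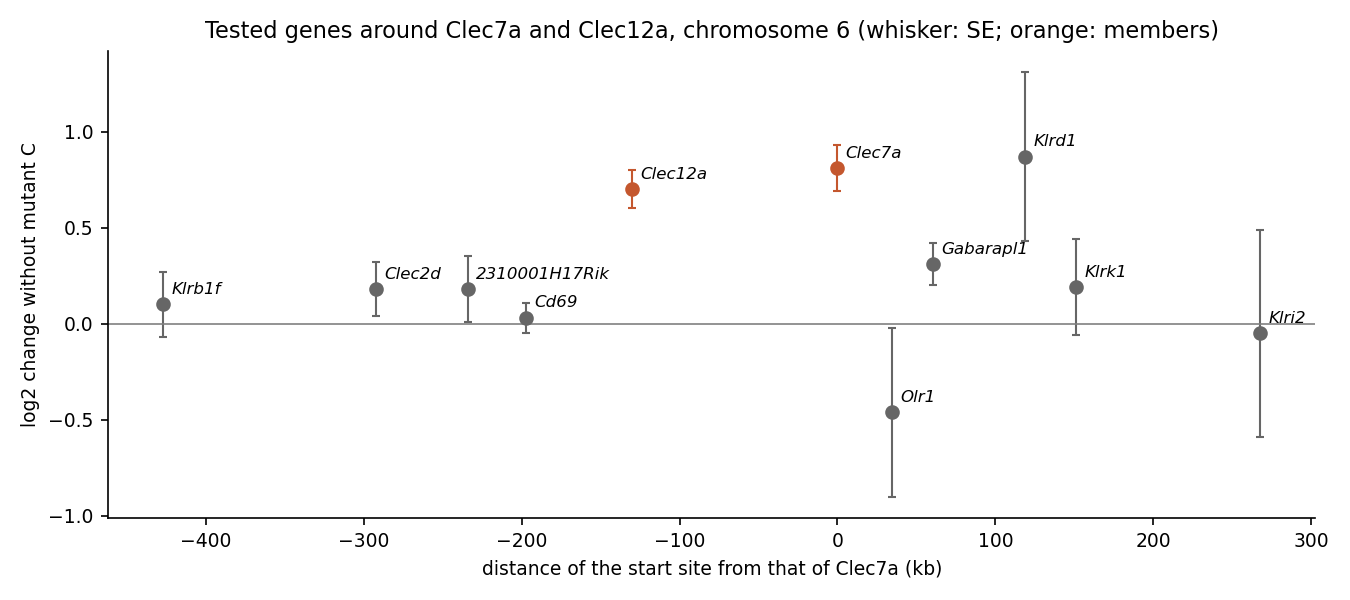
Log2 change without mutant C (vertical, whisker SE) of the 11 tested genes against the distance of their start site from that of Clec7a in kb (horizontal). The members Clec7a and Clec12a (orange) are at 0.81 and 0.70, and among the other genes Klrd1 is at 0.87 with an SE of 0.44 and Gabarapl1 at 0.31.

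Other C-type lectin genes, which were not among the 10, were tested over all genes. Of 82 listed, 76 are in the files and 24 were tested with all libraries, and 0 passed by edgeR (4 at an unadjusted p under 0.05). DESeq2 called 1, Selp, and limma-voom 0. Their median log2 change was 0.30, beside -0.02 for all tested genes, and without mutant C it was 0.07 beside -0.01. Selp, which encodes P-selectin of platelets and endothelium, had 3.86, 2.40 and 3.14 CPM in wild type against 0.661, 1.39 and 1.24 CPM for the mutant (log2 change -1.46, SE 0.34, edgeR adjusted p = 0.46).

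Several relatives of the members had values on either side of 0. Cd209a, a DC-SIGN homologue of dendritic cells, had 1.15, 2.33 and 2.43 CPM in wild type against 7.82, 4.02 and 2.82 CPM for mutants C, D and Q, without overlap (log2 change 1.29, SE 0.48, edgeR adjusted p = 0.60). Clec4e encodes Mincle, the partner of MCL, and lies next to Clec4d. It had 15.9, 19.7 and 21.3 CPM in wild type against 26.5, 16.5 and 17.3 CPM for the mutant, and its log2 change was 0.08 (SE 0.24) and -0.17 (SE 0.13) without mutant C. Cd93, an endothelial and progenitor lectin, had 178, 221 and 197 CPM in wild type against 86.1, 245 and 212 CPM for mutants C, D and Q, so that here mutant C was the lowest.

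Of 53 listed genes of the receptors' signalling path, 46 were tested, and edgeR called 0 with all libraries (0 of 46 had an unadjusted p under 0.05), as did both DESeq2 and limma-voom. Without mutant C edgeR again called 0 of 46, with 3 below an unadjusted p of 0.05. The median log2 change was -0.10 with all libraries and 0.02 without mutant C. The adaptor genes Tyrobp and Fcer1g were among those 3. Tyrobp had 61.6, 86.3 and 87.0 CPM in wild type against 555, 106 and 104 CPM for mutants C, D and Q, and Fcer1g had 37.9, 42.4 and 45.1 CPM and 225, 51.2 and 51.2 CPM. Both had every mutant library above every wild-type library, with log2 changes of 0.42 (SE 0.14, edgeR adjusted p = 0.37) and 0.29 (SE 0.09, edgeR adjusted p = 0.25) without mutant C. The groups overlapped for Hcst, the third adaptor, whose log2 change was 1.29 (SE 0.79) with all libraries and -0.12 (SE 0.27) without mutant C. The kinase gene Syk had a log2 change of -0.08 (SE 0.08) without mutant C, Card9 of -0.18 (SE 0.14) and the phosphatase gene Ptpn6 of 0.16 (SE 0.09).

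**Figure D5:**
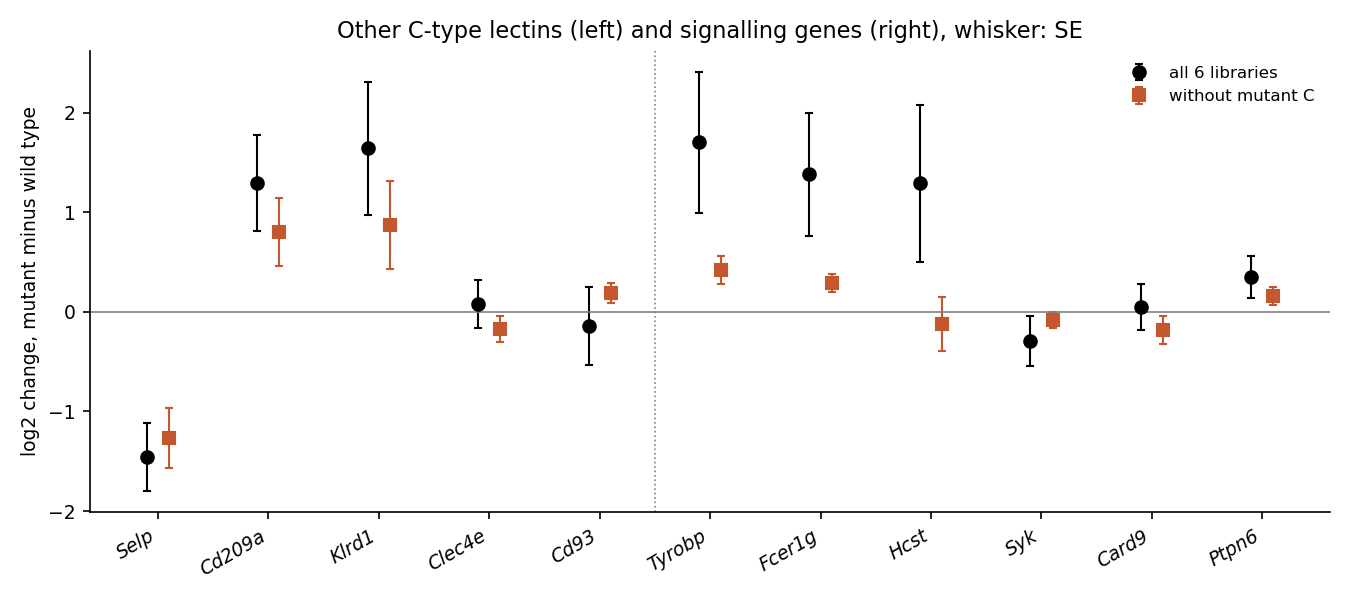
Fitted log2 change, mutant minus wild type, with its standard error, for 5 other C-type lectin genes (left of the dotted line) and 6 signalling genes (right), with all 6 libraries (black) and without mutant C (orange). Selp is below 0 in both fits, and Tyrobp, Fcer1g and Hcst go from 1.70, 1.38 and 1.29 to 0.42, 0.29 and -0.12 when mutant C is left out.

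Lists of genes used as markers of several cell types were also measured in the same libraries. Whether their transcripts came from such cells or from the sorted progenitors themselves was not tested. Of 25 monocyte and macrophage markers, 23 were above 0 in every library and Vsig4 was listed at 0 in all, and their summed TPM was 708, 654 and 624 in wild type A, F and L and 380, 658 and 504 in mutants C, D and Q. Of 18 dendritic cell markers, 17 were above 0 in every library, summing to 568, 531 and 581 TPM for wild type against 815, 634 and 572 TPM in the mutant. Of 17 neutrophil markers, only 9 were above 0 in every library, and Retnlg was at 0 in all. These 17 summed to 3987, 2559 and 2484 TPM for wild type against 1286, 2700 and 2466 TPM in mutants C, D and Q. The sign depended on the scale for these 3 lists, taken in the order above. Their median log2 changes with all libraries were 0.16, 0.16 and 0.20 in the edgeR fit. On log2(TPM + 0.5) they were -0.42, -0.18 and -0.45, beside -0.56 for all tested genes. Without mutant C the edgeR medians were -0.06, 0.14 and -0.19. By edgeR 0 genes of these 3 lists passed. With all libraries 0 of 18, 4 of 13 and 0 of 9 tested genes had an unadjusted p under 0.05, beside 4.57% of all tested genes. Without mutant C these were 4 of 19, 4 of 15 and 0 of 10, beside 1277 of all 12614 tested genes. DESeq2 and limma-voom called 0 of each list with all libraries. The 16 hepatoblast markers had a median log2 change of 2.83, which was 2.79 without mutant C and 1.61 without mutant Q, and 0 passed by edgeR (10 and 4 at an unadjusted p under 0.05), with 6 called in DESeq2 and 0 in limma-voom. Their summed TPM overlapped between groups, at 259 to 394 for wild type against 159, 182 and 720 for mutants C, D and Q, so mutant Q was by far the highest. The 14 erythroid markers summed to 2166, 2574 and 1285 TPM and to 2258, 941 and 808 TPM, and 2 of them, Epor and Aqp1, fell by edgeR (5 without mutant C). The 13 T, B and NK cell markers summed to 90.3 to 96.0 TPM for wild type against 79.1 to 90.8 TPM in the mutant. Only 6 of these 13 were above 0 in every library, and Cd3e and Ncr1 were at 0 in all. The part of any of these cells in the lectin values was not tested.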

How the data were processed

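RNA sequencing libraries (3 per genotype) were grouped by the titles in the labels. Per the submitters' processing notes, CASAVA 1.8.2, Bowtie 1.1.1 and RSEM 1.2.18 were used with build mm10, while annotation release and strand setting were not given in the sources used here. The deposited expected counts, a column so named in the file headers, are the reads RSEM assigned to each gene, without scaling. The deposited TPM values, also a column so named, are corrected for length and by definition sum to the same total in every library. The length and the effective length given for each gene were equal in all 6 libraries. The deposited FPKM values entered no comparison. Gene symbols were found for 24448 of 24815 identifiers.

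After rounding of the expected counts, edgeR 4.0.16 was run under R 4.3.3 (filterByExpr with a minimum count of 10, TMM, robust quasi-likelihood F test, Benjamini-Hochberg adjustment over all tested genes, threshold 0.05), and the SE was taken as the absolute log2 change over the root of F. DESeq2 1.42.0, limma 3.58.1 (voom, and log2 TPM with pseudocounts of 0.5 and 0.1), 2 other filters, RLE factors, length offsets and leaving out each library were alternatives. In simulated counts for this comparison, over 12222 genes, edgeR recovered 60.9% of 69 genes changed by 2 times and 100% of those changed by 4 times. It also called 10 unchanged genes. The simulation gave every gene the same dispersion, changed only genes with higher counts and held no outlying library like mutant C. Its recovery therefore does not carry over to the real libraries. Libraries of 1 group differed beyond counting noise (mean chi-square per gene of at least 9.25). The labels do not say whether libraries come from separate embryos, so p-values cover no more than the spread between samples, which may be technical.

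The members and lists were chosen with earlier results of these data known. The rule for naming genes covered the members, Gata2, from the other lists the 3 most abundant, the 2 with the smallest p and those past the threshold, and the 5 with the closest profiles. Not every gene under that rule is described: Cd302, Klrb1f and Clec4g, for example, were left out. Hcst, Syk, Card9, Gabarapl1, Olr1, the markers at 0, Epor and Aqp1 lie outside that rule and were picked with their values known. Of the 2 members without a RefSeq start region nothing is printed, and 1 other lectin that passed without mutant C is not reported here.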

Additional observations from a re-analysis of the deposited data

How the results depend on the processing

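No paired analysis was possible because the replicate letters differ between the genotypes. Over all genes 18 passed by edgeR, against 142 by DESeq2, 32 by limma-voom, 11 on log2(TPM + 0.1), 40 without a filter, 54 with length offsets and 86 on log2(TPM + 0.5) without mutant C, a setting chosen after seeing the data, as was scaling by library totals alone. Leaving out 1 library gave 0 to 145 genes, the 145 without mutant C and 0 without each of the others. Of the 10 members 0 passed, with 0 to 2 when 1 library was left out (2 without mutant C) and 1 on log2(TPM + 0.5) without mutant C. Of the other lectins 0 passed, against 1 by DESeq2, 1 on log2(TPM + 0.5) without mutant C and 0 to 1 when 1 library was left out (1 without mutant C). The signalling count stayed at 0 in every setting run, and the order of the wild-type levels kept all 10 places with CPM per kb and without each wild-type library. Over 16 alternatives the log2 change of Clec7a ran from 0.58 to 1.61 and that of Clec12a from 0.62 to 1.78, while that of Clec4a2 was below 0 in 5. The cause of these shifts was not tested. Depth limits Clec9a, Clec4a3, Clec4a1, Clec4n and Clec10a, which had at most 33.9 counts in any library.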
